A study of Mus musculus with 4 samples.

Results

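CD-named surface antigens are the genes whose symbol is Cd, a number and at most a short suffix, such as Cd44 or Cd300lb, with Cd74 set aside. Of the 5807 genes in the authors' table of differences between pleural cavity and bone marrow eosinophils, 37 fit this rule, and all 37 are described below. The mice were wild-type, 6 to 8 weeks old, and had received LLC (Lewis lung carcinoma) tumor cells, injected into the pleural space 2 days earlier. Eosinophils of the bone marrow (2 libraries, labelled WT_LLC_BM) and of the pleural lavage fluid (2 libraries, labelled WT_LLC_MPE, for malignant pleural effusion) were sorted and sequenced. Both groups came from mice given LLC cells according to the labels, so neither came from mice without the injection. The paper's results call the marrow eosinophils naïve, whereas its supplementary methods name LLC-bearing mice as their source. The strain of the sequenced mice and whether animals were pooled are not given in the sources used here. Bone marrow cells were sorted on CD45, SiglecF and high side scatter after bead enrichment for F4/80, whereas the pleural cavity gate also required CD11b and F4/80 and removed cells positive for CD11c or high in Gr1.

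The deposited values are the authors' mean read counts of each tissue. Values of the separate libraries are not analysed here, and neither a spread between replicates nor a test is given for any gene. Mean reads summed to 15947438 over the listed genes in the pleural cavity against 11762543 in the marrow, and these sums are not library depths. Levels are given as mean reads per 1000000 listed reads (rpm below), and ratios as log2 of the pleural cavity level over the bone marrow level. The 95% interval beside a ratio is an exact binomial (Clopper-Pearson) interval that takes the rounded mean as a number of reads. It covers counting error alone. All genes in the table are there because the authors' comparison picked them, so being listed is no result about a gene, and a gene that is not listed has no direction here.

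CD numbers were given to leukocyte surface molecules in the order in which antibodies grouped them, and the number says nothing of function. The products include adhesion molecules, tetraspanins that organise membrane patches, ligands that costimulate or restrain T cells, and paired receptors that activate or inhibit myeloid cells through shared adaptors. Eosinophils mature in the bone marrow, enter tissues, and are known to bear adhesion molecules and inhibitory receptors on their surface. Cd5l differs from the other members, since it encodes a secreted scavenger protein of macrophages and no surface antigen. None of the antigens used in the gates carries a Cd symbol. Among them, Siglecf had a log2 ratio of 1.15, Adgre1 (F4/80) of 2.26, Ptprc (CD45) of 1.35 and Itgam (CD11b) of 0.35, while the Gr1 genes Ly6g and Ly6c2 had -8.20 and -5.62.

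The CD-named genes were split between the tissues. A log2 ratio above 1 was found for 15 of the 37, against 16.0% of all listed genes, and a ratio below -1 for 16, against 50.5% of all listed genes. Regardless of size, 21 members were higher in pleural cavity eosinophils and 16 lower, with 42.5% of all listed genes higher. The paper's own comparison picked genes by p-value and an absolute log2 fold change over 1. By the ratios used here, 1942 listed genes lay within 1, 6 of them members. The paper also counts fewer listed genes as higher than the 2468 with a ratio above 0 here, so its fold changes and these ratios differ. Some genes that were higher here are therefore lower by the paper's fold changes, and which ones was not examined. A log2 ratio above 2 was found for 7 members, against 5.29% of all listed genes, and below -2 for 10, against 36.7%. The median log2 ratio was 0.70 over the members and -1.02 over all listed genes. Among members with at least 100 mean reads in one tissue, 15 of 36 lay above 1 and 15 below -1, and the shares of all listed genes with as many reads were 19.3% and 38.0%. These counts describe 2 pools of libraries, and fewer cells of a type and less RNA per cell cannot be told apart in them.

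**Figure D1:**
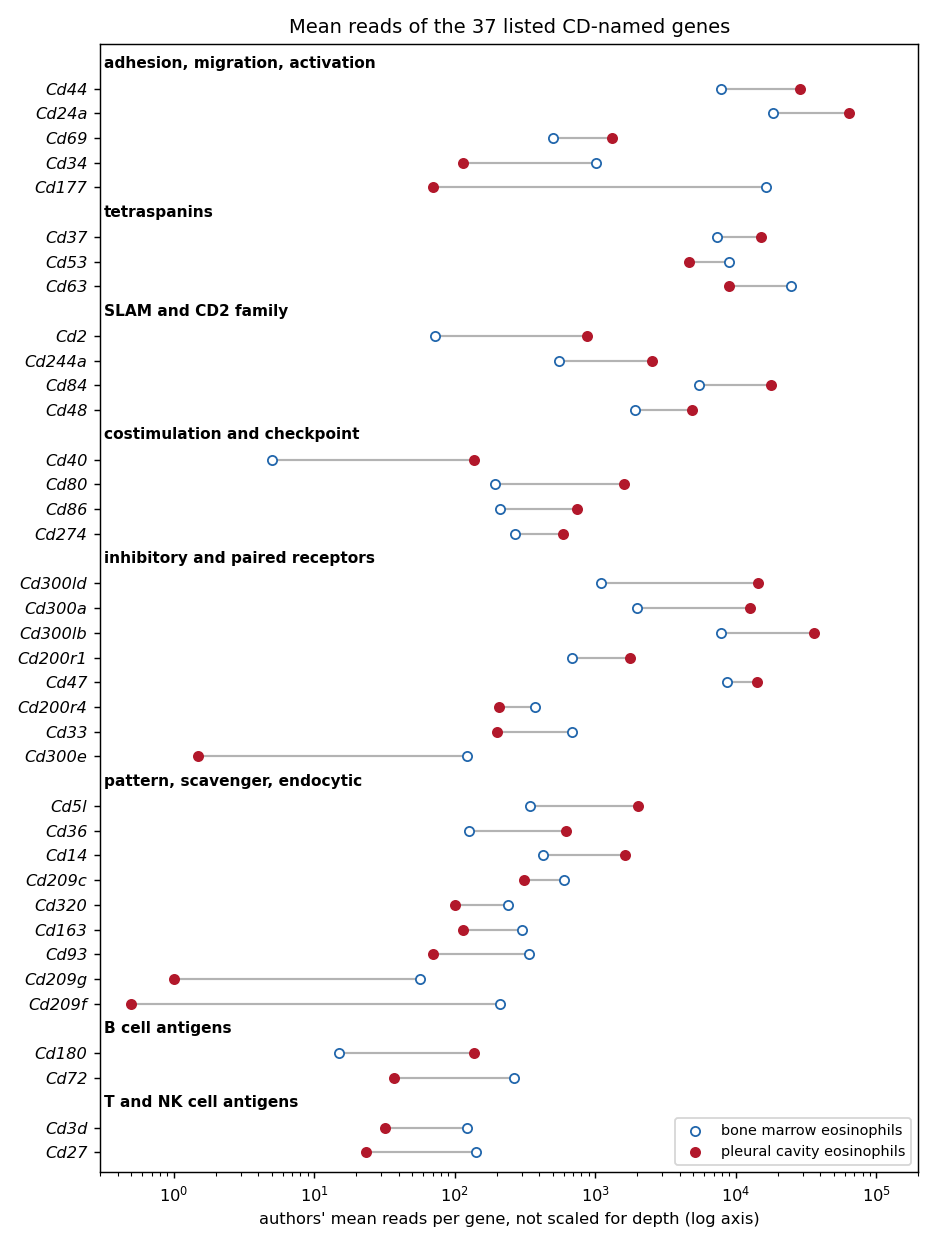
Authors' mean reads of each CD-named gene in bone marrow (open circles) and pleural cavity (filled circles) eosinophils, by role, on a log axis and not scaled for depth. Cd24a had the most reads in pleural cavity eosinophils, at 64549.5, and Cd209f the fewest, at 0.5.

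**Figure D2:**
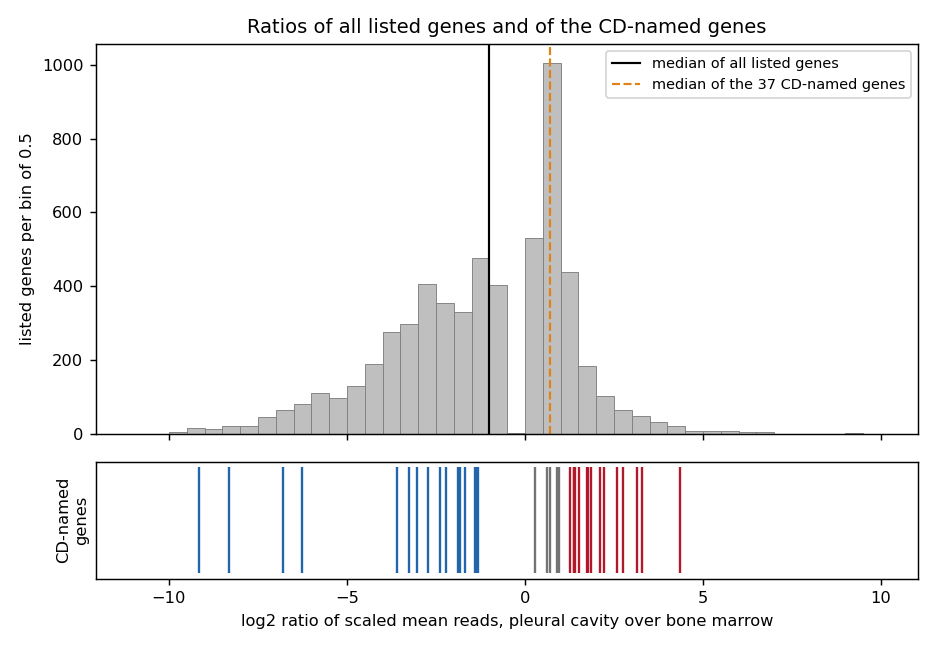
Histogram of the log2 ratio of scaled mean reads, pleural cavity over bone marrow, for all 5807 listed genes, with the 37 CD-named genes as lines below it (red above 1, blue below -1, grey between). The median of the CD-named genes, 0.70, lies to the right of the median of all listed genes, -1.02.

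Members took 1.49% of the listed reads in the pleural cavity against 1.01% in the marrow. Most of these reads belonged to few genes, as the 4 members with the most reads in each tissue held 61.9% of the member reads in the pleural cavity against 57.7% in the marrow. Reads per kilobase of the longest annotated transcript per 1000000 listed reads were used for any order between genes. On that scale Cd24a was the highest member in both tissues, with 2229 in the pleural cavity against 860 in the marrow. It was followed in pleural cavity eosinophils by Cd300lb at 785 and Cd37 at 377. In bone marrow eosinophils Cd63 came next at 727 and Cd177 at 516, so the order of the leading members differed between the tissues.

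**Figure D3:**
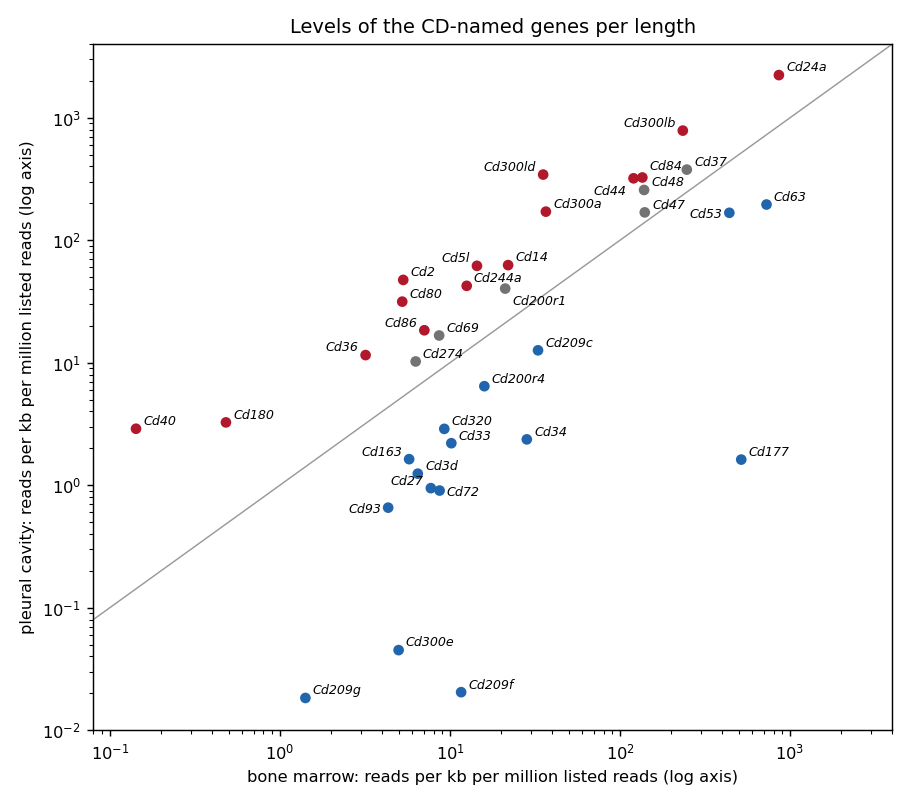
Level of each CD-named gene per length in bone marrow (horizontal) and pleural cavity (vertical) eosinophils, in reads per kb per 1000000 listed reads on log axes, with the line of equal levels and the colors of the log2 ratio (red above 1, blue below -1, grey between). Cd24a stands at the upper right, and Cd177 lies far below the line, at 516 in bone marrow and 1.62 in pleural cavity eosinophils.

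Of 13 adhesion, migration and activation antigens on the list, 5 were listed, 3 of them higher and 2 lower in pleural cavity eosinophils. Cd24a and Cd44 had log2 ratios above 1, as had 16.0% of all listed genes, and Cd34 and Cd177 had ratios below -1, as had 50.5%. Cd24a, a heavily glycosylated antigen held in the membrane by a lipid anchor, lies on chromosome 10 of GRCm38 from 43578284 to 43584265. It had 64549.5 mean reads in the pleural cavity against 18361 in the marrow, a log2 ratio of 1.37 (95% counting interval 1.35 to 1.40). Cd44, the main receptor for hyaluronan, lies on chromosome 2 from 102811141 to 102901665 and had 28658 against 7926 mean reads, a log2 ratio of 1.42 (1.38 to 1.45). By level per kilobase in pleural cavity eosinophils, Cd24a ranked 24 and Cd44 ranked 225 of all listed genes matched to the annotation. When the tissues were instead aligned on abundant genes, the log2 ratios of Cd24a and Cd44 were 0.93 and 0.97, just under 1. Cd69, an early activation antigen that holds cells in tissues by opposing S1pr1, had 1321 and 504.5 mean reads and a log2 ratio of 0.95 (0.80 to 1.10).

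Cd177 gave the second lowest ratio of the members and rested on many reads. It encodes a lipid-anchored antigen best known from neutrophils, and lies on chromosome 7 from 24743983 to 24760311. Its mean reads were 70 in the pleural cavity against 16479.5 in the marrow, a log2 ratio of -8.32 (-8.68 to -7.98) or 319-fold lower. It ranked 41 from the lowest ratio of all listed genes, with a floor of 3 mean reads for genes at 0. Cd177 moved with neutrophil and granulocyte precursor markers, of which 13 of 14 were listed. Of the listed ones 12 had a ratio below -1, as had 50.5% of all listed genes. The summed level of those markers was 2345 rpm in the pleural cavity against 104129 in the marrow, and none of the listed ones was at 0. Most of the pleural cavity sum came from Mmp9, the only listed marker that was higher there, with 2177 rpm against 1195 and a log2 ratio of 0.87. Granule genes of eosinophils themselves were lower as well, with Epx at -9.11 and Prg2 at -8.99. The part of neutrophil or precursor RNA in the Cd177 ratio was not tested. Cd34, a sialomucin of blood progenitors, was lower too, with 115.5 and 1019.5 mean reads and a log2 ratio of -3.58 (-3.87 to -3.30). An antisense gene, Gm16897, shares exon sequence with Cd34, and the strand of the counting is not given in the sources used here.

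**Figure D4:**
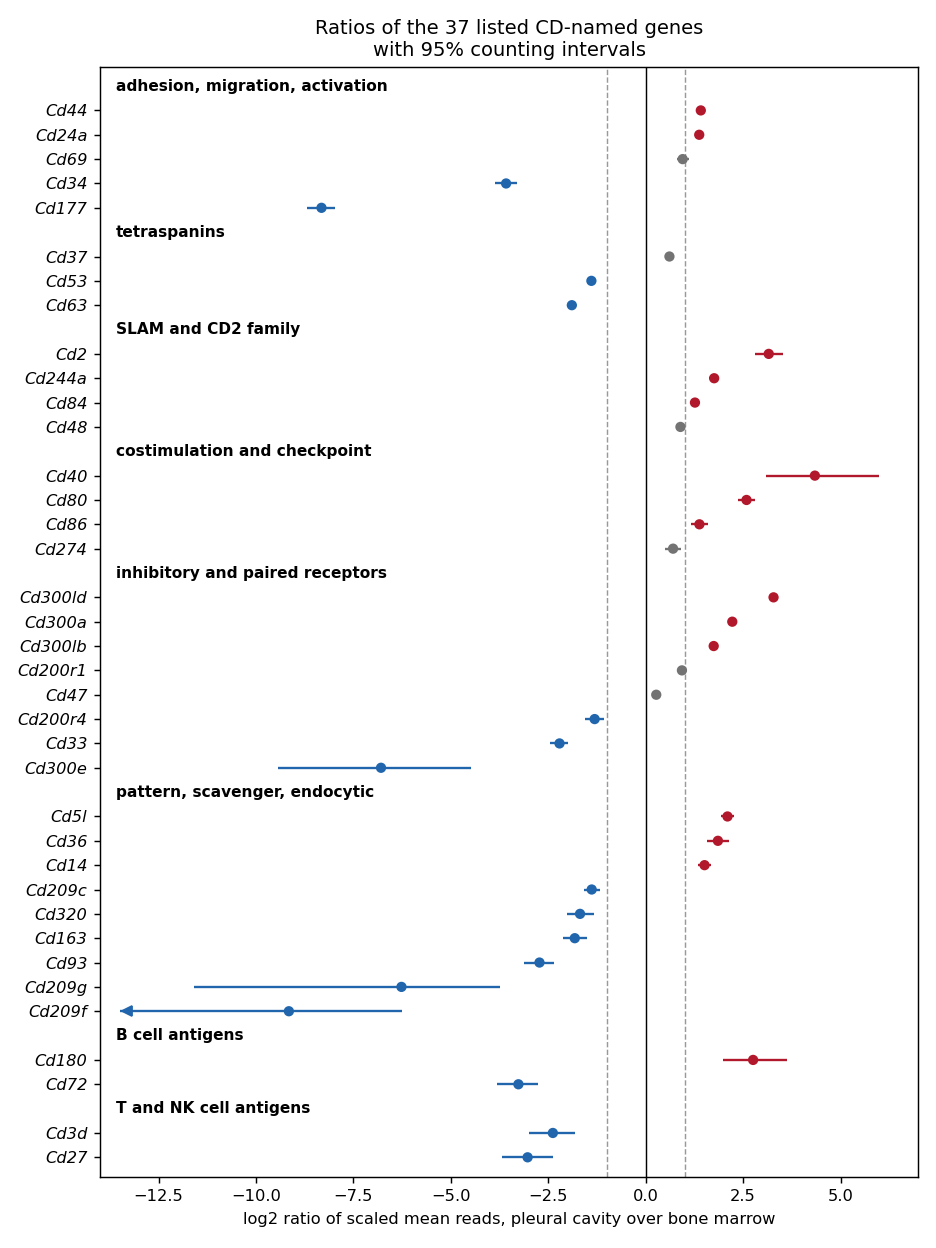
Log2 ratio of scaled mean reads, pleural cavity over bone marrow, of each CD-named gene by role, with 95% counting intervals as bars (an arrow where the interval has no lower end), dashed lines at -1 and 1, and red, blue and grey for ratios above 1, below -1 and between. The CD-named genes of costimulation and of the SLAM and CD2 family lie wholly to the right of 0. The widest intervals belong to Cd209f, Cd209g and Cd300e.

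The listed tetraspanins went in different directions. Tetraspanins span the membrane repeatedly and gather integrins and receptors into patches. Of the 7 Cd-named ones on the list, 3 were listed. Cd63 sits in the membranes of granules and lysosomes and reaches the cell surface when granules are released. It had 9023.5 mean reads in the pleural cavity against 24740.5 in the marrow, a log2 ratio of -1.89 (-1.93 to -1.86). Cd53, a tetraspanin of leukocytes in general, had 4649 and 9002.5 mean reads and a log2 ratio of -1.39 (-1.44 to -1.34), which was -0.95 when mean reads were left unscaled. Cd37, also restricted to leukocytes, had 15277 and 7382 mean reads and a log2 ratio of 0.61 (0.57 to 0.65). The ratio of Cd37 was 0.17 with the tissues aligned on abundant genes, and Tead2 on the opposite strand shares exon sequence with this gene. The lower level of Cd63, a granule membrane gene, stood beside the lower levels of the granule and precursor genes given for Cd177, whose part in it was not tested.

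Cd37 changed place with the other listed tetraspanins, whereas Cd63 lay above Cd53 per kilobase in both tissues. Per kilobase, the level of Cd63 was 2.94 times that of Cd37 in bone marrow eosinophils and 0.519 times in pleural cavity eosinophils. Cd53 stood at 1.78 times the level of Cd37 in bone marrow and at 0.444 times in pleural cavity eosinophils. Such ratios within a tissue do not depend on how the tissues were scaled. Among 24 tetraspanins under other symbols, 9 were listed, 5 higher and 4 lower in pleural cavity eosinophils, where 42.5% of all listed genes were higher. Tspan32 and Tspan13 of these had log2 ratios of 0.63 and 1.18, while Tspan4, with fractional reads, and Tspan31 had -3.14 and -1.95. With the tissues aligned on abundant genes, Tspan32 and Tspan13 had 0.19 and 0.74. Of 13 integrins and other molecules that tetraspanins bind, 7 were listed and 6 of these were higher, as were 42.5% of all listed genes. Itgam, 1 of the 6, turned to -0.09 with the tissues aligned on abundant genes. Among the listed ones were Itgb1 at 2.01, Itgb7 at 2.30 and Itga4 at 1.13, while Itga2b was lower at -2.61. Itga4 had fractional reads and a log2 ratio of 0.69 with the tissues aligned on abundant genes.

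The 4 listed Cd-named genes of the SLAM and CD2 family were higher in pleural cavity eosinophils, as were 42.5% of all listed genes. These adhesion molecules bind each other between leukocytes, CD48 being a ligand of CD2 and of CD244, while CD84 binds itself. Of 5 names on the list 4 were listed, and 3 of them had a log2 ratio above 1, against 16.0% of all listed genes. Cd2 had 871.5 mean reads in the pleural cavity against 72 in the marrow, a log2 ratio of 3.16 (2.81 to 3.53). Cd244a had 2542.5 and 554.5 mean reads and a log2 ratio of 1.76 (1.63 to 1.89). Cd84 had the most reads of the family, with 17804 and 5464 mean reads and a log2 ratio of 1.27 (1.22 to 1.31), which was 0.82 with the tissues aligned on abundant genes. Its mean reads were fractional, as happens when RSEM, which estimated the counts, divides reads among similar sequences, so its value is uncertain. Cd48 had 4863.5 and 1932 mean reads and a log2 ratio of 0.89 (0.82 to 0.97). Receptors and ligands with Cd symbols were thus both higher, Cd2 by the most. Ly9, a SLAM family gene under another symbol, was lower, with a log2 ratio of -2.42. Cd244a, Cd48 and Cd84 lie within 331.5 kb of each other on chromosome 1, from 171559193 to 171890718, whereas Cd2 lies on chromosome 3.

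Of 8 costimulatory and checkpoint antigens on the list 4 were listed. Cd40, Cd80 and Cd86 had log2 ratios above 1, against 16.0% of all listed genes, and the checkpoint ligand Cd274 was higher by less than that. CD80 and CD86 are the ligands through which antigen-presenting cells costimulate T cells by CD28 and restrain them by CTLA-4. Cd80 had 1594 mean reads in the pleural cavity against 195.5 in the marrow, a log2 ratio of 2.59 (2.37 to 2.81). Cd86 had 744.5 and 211 mean reads and a log2 ratio of 1.38 (1.16 to 1.61), which was 0.94 with the tissues aligned on abundant genes. Per kilobase, Cd80 stood at 0.741 times the level of Cd86 in bone marrow eosinophils and at 1.71 times in pleural cavity eosinophils, so the leading ligand of the pair differed. Cd40, the receptor for the T cell ligand CD40L, had the highest ratio of all members but few reads, 137.5 against 5, with a log2 ratio of 4.34 (3.09 to 5.99). Cd274, which encodes PD-L1, had 591 and 268 mean reads and a log2 ratio of 0.70 (0.49 to 0.92), or 0.26 with the tissues aligned on abundant genes, with fractional reads and an antisense gene, AC119228.1, that shares exon sequence with it. Of 5 CD40 adaptors only Traf3 was listed, at 0.78 with fractional reads. A different class of cells that bears these antigens is dendritic cells and macrophages, and of 10 of their markers 5 were listed, with a summed level of 4937 rpm in the pleural cavity against 7990 in the marrow. Lyz2, whose reads were fractional, gave 3160 of the former and 7441 of the latter and so set the direction of the sum. Csf1r and C1qb on that list had log2 ratios of 1.94 and 1.77, C1qa had 0.92, and Lyz2 and Mrc1 had -1.24 and -1.27. None of the listed markers was at 0, and their part in the Cd80, Cd86 and Cd40 ratios was not tested.

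Of 22 inhibitory and paired receptors on the list 8 were listed. Of these 8, 3 had a log2 ratio above 1 and 3 below -1, against 16.0% and 50.5% of all listed genes. Together the 8 took 4986 rpm in the pleural cavity against 1830.3 in the marrow, and the Cd300 family gave most of the former. CD300 molecules are receptors for membrane lipids on myeloid cells. CD300a carries inhibitory motifs, and CD300lb, CD300ld and CD300e signal through activating adaptors. The annotation holds 12 Cd300 genes, and 4 were listed, all within 172.1 kb of chromosome 11 from 114890041 to 115062177. Together they took 3963 rpm in the pleural cavity against 948 in the marrow, a log2 ratio of 2.06.

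Cd300ld had 14483 mean reads in the pleural cavity against 1099 in the marrow, a log2 ratio of 3.28 (3.19 to 3.37), the second highest of the members. Cd300a had 12670.2 and 2002 mean reads and a log2 ratio of 2.22 (2.15 to 2.29). Both had fractional reads, and the family holds similar neighbours among which reads could be shared. Cd300lb had 36048 and 7927 mean reads without fractions and a log2 ratio of 1.75 (1.71 to 1.78). Higher levels were therefore seen for an inhibitory and for activating receptors alike. Per kilobase, Cd300lb exceeded Cd300ld 6.63 times in bone marrow eosinophils and 2.29 times in pleural cavity eosinophils. Cd300e, at the far end of the cluster, stood apart with 1.5 mean reads in the pleural cavity against 122.5 in the marrow, a log2 ratio of -6.79 (-9.43 to -4.49).

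**Figure D5:**
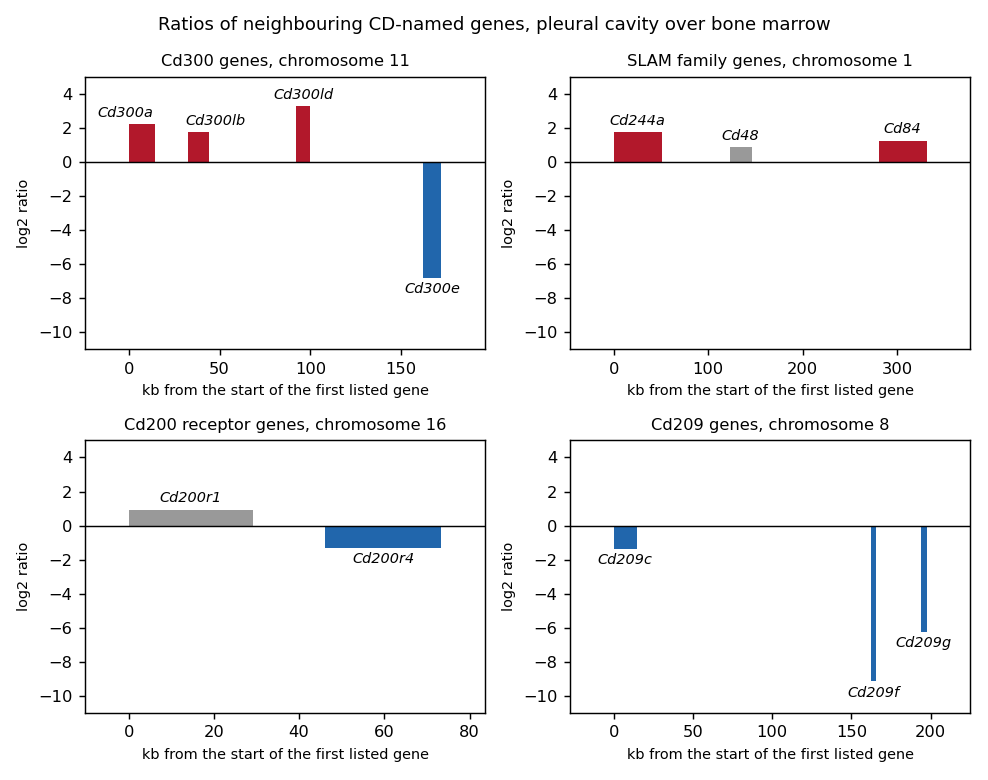
Log2 ratio, pleural cavity over bone marrow, of neighbouring CD-named genes against their distance in kb from the start of the first listed gene of each cluster. Each bar spans 1 gene and starts at 0, in red above 1, blue below -1 and grey between. Cd300a, Cd300lb and Cd300ld lie above 0 and Cd300e at -6.79, while the 3 Cd209 genes all lie below 0.

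The upstream sequences of these neighbouring Cd300 genes, which differed in direction, are shown with that of Cd177, the member with the most reads among those far lower in pleural cavity eosinophils. They come from RefSeq for GRCm38.p6, run 5′ to 3′ in the direction of the gene, and end before the first annotated exon. Capitals mark matches on either strand to 4 short motifs. For GATA factors the motif searched was AGATAA. For PU.1 the letters searched were GAGGAA. For C/EBP factors they were TTGCNNAA, where N is any base. The last motif was the interferon response element, searched as a pair of GAAA blocks with any 2 bases between them. The motifs were chosen as those of factors known in granulocytes.

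Cd300a, chr11:114889791-114890040, plus strand: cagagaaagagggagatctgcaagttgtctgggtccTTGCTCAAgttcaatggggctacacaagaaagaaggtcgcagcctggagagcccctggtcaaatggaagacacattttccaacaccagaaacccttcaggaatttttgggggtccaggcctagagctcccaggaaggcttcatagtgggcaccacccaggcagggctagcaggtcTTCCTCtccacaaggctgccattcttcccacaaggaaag
Cd300lb, chr11:114934387-114934621, minus strand: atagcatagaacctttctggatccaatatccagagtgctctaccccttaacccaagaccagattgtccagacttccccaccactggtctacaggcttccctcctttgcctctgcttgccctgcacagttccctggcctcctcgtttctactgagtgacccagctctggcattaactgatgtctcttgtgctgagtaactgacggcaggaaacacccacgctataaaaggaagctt
Cd300ld, chr11:114989923-114990136, minus strand: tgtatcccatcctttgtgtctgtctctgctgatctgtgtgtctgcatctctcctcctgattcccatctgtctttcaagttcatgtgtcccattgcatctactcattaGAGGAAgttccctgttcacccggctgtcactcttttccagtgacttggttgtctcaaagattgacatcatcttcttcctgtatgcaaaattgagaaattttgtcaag
Cd300e, chr11:115062178-115062289, minus strand: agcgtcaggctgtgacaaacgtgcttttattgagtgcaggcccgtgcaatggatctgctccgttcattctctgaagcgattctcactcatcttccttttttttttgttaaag
Cd177, chr7:24760312-24760561, minus strand: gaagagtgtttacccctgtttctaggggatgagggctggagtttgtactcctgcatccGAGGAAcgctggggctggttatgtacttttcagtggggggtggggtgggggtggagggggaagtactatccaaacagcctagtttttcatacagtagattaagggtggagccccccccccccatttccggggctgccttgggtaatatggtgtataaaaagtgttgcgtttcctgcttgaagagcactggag

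The upstream sequence of Cd300a held a C/EBP match and a PU.1 match, those of Cd300ld and Cd177 a PU.1 match each, and the stretch of Cd300lb none of the 4 motifs. For Cd300e the 138 bases nearest the RefSeq start lie in annotated exon sequence and are not printed. The 112 printed bases held no match, while the full window of Cd300e held AGATAA in the part left out. Full windows of 250 bases before the RefSeq start were given for 29 of the 37 members. GAGGAA was found in 12 of these 29 genes, or 41.4%, and in 25.9% of all 27025 genes with such windows. It was found in 5 of 14 members that were higher in pleural cavity eosinophils and in 7 of 15 that were lower. AGATAA was found in 3 members and in 11.4% of all genes, TTGCNNAA in 3 and in 10.8%, and the interferon response element in 0 and in 3.46%. A match is a description of letters, and no binding was measured.

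Other receptors of the paired kind split within their family as well. CD200R1 inhibits myeloid cells that meet its ligand CD200, and CD200R4 is an activating relative encoded next to it on chromosome 16. Cd200r1 had 1777 mean reads in the pleural cavity against 687.5 in the marrow, a log2 ratio of 0.93 (0.80 to 1.06). Cd200r4 had 205.5 and 375.5 mean reads and a log2 ratio of -1.31 (-1.56 to -1.06), which was -0.87 when mean reads were left unscaled. Per kilobase, Cd200r1 exceeded Cd200r4 1.33 times in bone marrow and 6.26 times in pleural cavity eosinophils. Cd33, a sialic acid binding receptor, was lower, with 201 and 686 mean reads and a log2 ratio of -2.21 (-2.44 to -1.98). Cd47, the signal by which cells hold off phagocytes through SIRPα, differed least of all members, with 14128 and 8630.5 mean reads and a log2 ratio of 0.27 (0.23 to 0.31). Its direction turned to -0.17 with the tissues aligned on abundant genes. Of 12 adaptors and phosphatases of such receptors 5 were listed, and 2 had a log2 ratio above 1, against 16.0% of all listed genes. These were Ptpn6 at 1.04 and Sh2d1b1 at 1.39, or 0.59 and 0.94 with the tissues aligned on abundant genes. Tyrobp had 0.86, Inpp5d 0.33 and Fcer1g 0.32, so all 5 were higher, as were 42.5% of all listed genes, but Inpp5d and Fcer1g turned to -0.12 with the tissues aligned on abundant genes.

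Of 17 scavenger, pattern and endocytic receptors on the list 9 were listed. They divided into 3 higher and 6 lower members, each with a log2 ratio beyond 1. Among all listed genes 16.0% lay above 1 and 50.5% below -1. CD14 presents lipopolysaccharide to Toll-like receptors, CD36 takes up fatty acids and oxidised lipids, and CD5L is secreted by tissue macrophages. Cd5l had 2005 mean reads in the pleural cavity against 345 in the marrow, a log2 ratio of 2.10 (1.93 to 2.27). Cd36 had 625 and 127.5 mean reads and a log2 ratio of 1.85 (1.57 to 2.13). Cd14 had 1638.5 and 424 mean reads and a log2 ratio of 1.51 (1.36 to 1.67). These are also genes of macrophages, whose complement genes C1qa and C1qb had log2 ratios of 0.92 and 1.77 with 2402 and 5065 mean reads in pleural cavity eosinophils. Csf1r, also a macrophage marker, was higher at 1.94, while Lyz2 and Mrc1 were lower at -1.24 and -1.27. Cd36 is a gene of platelets too, and the platelet gene Pf4 had 1069.5 and 62 mean reads and a log2 ratio of 3.67. Another platelet gene, Gp9, went the other way at -1.90. Of the 5 listed erythroid and platelet markers 4 were lower, where 42.5% of all listed genes were higher. The part of macrophage or platelet RNA in the 3 ratios was not tested. The haemoglobin scavenger gene Cd163, another macrophage antigen, went the other way, with 115.5 and 300.5 mean reads and a log2 ratio of -1.82 (-2.13 to -1.50).

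Lower members of this kind had few reads. Cd93, a receptor of endothelial and early myeloid cells, had 69.8 mean reads in the pleural cavity against 340.0 in the marrow, a log2 ratio of -2.72 (-3.11 to -2.34). Cd320, which takes up vitamin B12 bound to transcobalamin, had 101.5 and 240.5 mean reads and a log2 ratio of -1.68 (-2.02 to -1.33). The Cd209 genes encode C-type lectins related to DC-SIGN, and of 7 annotated 3 were listed, within 197.5 kb of chromosome 8. Cd209c had 312 and 600.5 mean reads and a log2 ratio of -1.38 (-1.58 to -1.18), which was -0.95 when mean reads were left unscaled. Cd209f had 0.5 mean reads in the pleural cavity against 210.2 in the marrow, a log2 ratio of -9.15. Its interval reaches up to -6.26 and has no lower end, because the mean was rounded down to no reads. Cd209g had 1 and 56.8 mean reads and a log2 ratio of -6.27 (-11.60 to -3.74). All 3 were lower, and all 3 had fractional reads, as did Cd93, so their values are uncertain.

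Lymphocyte antigens had few reads in both tissues. Cd3d, a chain of the T cell receptor complex, had 32 mean reads in the pleural cavity against 123 in the marrow, a log2 ratio of -2.38 (-2.99 to -1.81). Cd27, a costimulatory receptor of T, B and NK cells, had 23.5 and 141.5 mean reads and a log2 ratio of -3.03 (-3.69 to -2.37), and the microRNA gene Mir8113 overlaps its exons on the same strand. Of 15 T and NK cell antigens on the list these were the only 2 listed. Among 8 further T and NK cell markers only Ncr1 and Nkg7 were listed, with a summed level of 7.96 rpm in the pleural cavity against 892 in the marrow, nearly all of it from Nkg7. The part of such cells in the Cd3d and Cd27 ratios was not tested.

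B cell antigens pointed in opposite directions. Cd72, an inhibitory lectin of B cells, had 37.2 mean reads in the pleural cavity against 264 in the marrow, a log2 ratio of -3.27 (-3.81 to -2.77). Its reads were fractional, and Tesk1 on the opposite strand shares exon sequence with it. Cd180, a Toll-like receptor relative that tunes B cell responses, had 137.5 and 15 mean reads and a log2 ratio of 2.76 (1.99 to 3.64), and it shares exon sequence with Mast4 on the opposite strand. Of 6 B cell markers only Ms4a1 was listed, at 366 and 107 mean reads with a log2 ratio of 1.34 and a level of 23.0 rpm against 9.10, and the part of B cells in these ratios was not tested. No complement regulator such as Cd55 or Cd59a and no CD1 antigen-presenting gene was among the listed genes, so they have no direction here.

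Partners of the members under other symbols had values of their own. Of 16 ligands and receptors, 5 were listed, 2 higher and 3 lower in pleural cavity eosinophils, where 42.5% of all listed genes were higher. S1pr1, the receptor for exit from tissues that CD69 opposes, had 1782.5 mean reads in the pleural cavity against 108.5 in the marrow, a log2 ratio of 3.60, above that of Cd69. Siglecg, a receptor for CD24, had a log2 ratio of 0.97, with fractional reads. Hmmr, a second receptor for hyaluronan that is also a gene of dividing cells, had -4.64, with fractional reads, against 1.42 for Cd44. Thbs1, a ligand of CD36 and CD47, had -1.95, and Pvr had -3.13. Ezr, which ties CD44 to the actin cytoskeleton, had 18068.5 and 3978 mean reads and a log2 ratio of 1.74, and it was the only listed gene of 4 such linkers.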

How the data were processed

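Eosinophils sorted from 2 tissues were sequenced as 2 libraries each, grouped by the sample labels. According to the study's methods, reads were trimmed with SOAPnuke, aligned to GRCm38 with HISAT2 2.1.0, mapped to genes with Bowtie2 2.2.5 and counted with RSEM 1.2.8. The authors deposited expected counts as means per tissue, not scaled for depth. The log2 fold changes, p-values and q-values of the authors' DESeq2 comparison stand in the same table and were not used. Columns of single libraries left unused numbered 0.

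Here mean reads were divided by their sum over all 5807 listed genes and multiplied by 1000000, with no pseudocount. A ratio was counted past an absolute log2 value of 1. No gene of the 37 was at 0 in a tissue. The largest genes weigh on such a sum, so other scalings were tried. The counting intervals take the mean of 2 libraries as the reads, fewer than were counted in all, which widens the intervals. PCR copies are not independent molecules, which makes the intervals too narrow. The intervals are also blind to variation between mice. The ratio and its interval were tried on simulated data that held counting error alone, with the depths known. The scaling and the variation between mice were not tested by it. Fractional means were those more than 1e-06 from a multiple of 0.5. Coordinates and lengths come from GENCODE M21 on GRCm38, an earlier release than the authors', where all 37 matched by Ensembl identifier. RefSeq windows matched by NCBI gene identifier.

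Members, gene lists, motifs and alternatives were chosen with earlier results of these data known. All members are named. Mean reads are given for each. The lists of other cell types also covered eosinophils (10 of 11 listed, 12297 and 96509 rpm in pleural cavity and bone marrow eosinophils), basophils and mast cells (7 of 8, 25.5 and 1111), erythroid cells and platelets (5 of 8, 69.6 and 54.1) and mesothelial or tumor cells (2 of 8, 893 and 562). Single genes weighed on these sums. Prg2 gave 47218 rpm of the eosinophil sum in the marrow. Of the 10 eosinophil markers 7 were lower in the pleural cavity, while Siglecf, Adgre1 and Ccr3, the last at 1.54, were higher, as were 42.5% of all listed genes. Vim gave 772 and 518 rpm of the mesothelial or tumor sums, and Pf4 gave 67.1 and 5.27 rpm of the erythroid and platelet sums. Intervals were computed with scipy 1.17.1 and numpy 2.4.6, the table was handled with pandas 2.3.3 in Python 3.11.15, and plots were drawn with matplotlib 3.10.9.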

Additional observations from a re-analysis of the deposited data

How the results depend on the processing

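Leaving mean reads unscaled moved every log2 ratio by 0.44, aligning the tissues on the median ratio over abundant listed genes (1000 or more mean reads in each tissue) by -0.44, and summing without the 20 genes with the most reads by -0.18. The median log2 ratio of all listed genes was -0.58, -1.47 and -1.21 under these scalings, and that of the members 1.14, 0.26 and 0.52. The members' median was 0.91 for members with more than 3 mean reads in both tissues, 0.91 without fractional reads and 0.80 with at least 100 mean reads in one tissue. Unscaled, 20 members lay above 1 and 13 below -1, against 30.5% and 43.2% of all listed genes, and with the median ratio 11 and 16, against 9.04% and 57.3%. Of the 37 directions, only that of Cd47 turned under these scalings, to -0.17 with the median ratio. The log2 ratios of Cd37 and Cd274 fell to 0.17 and 0.26 with it. The scaling of the paper's own comparison, which counts fewer listed genes as higher, was not among those tried. With an absolute log2 ratio over 2, 7 members were counted higher and 10 lower, against 5.29% and 36.7% of all listed genes. Without Cd24a, members took 1.08% of the listed reads in the pleural cavity against 0.854% in the marrow. Removing intracellular partners changed nothing, as none was listed. No paired analysis was possible because the deposited means carry no replicate numbers, and no library could be left out for the same reason. Genes listed with few reads, such as Cd40, Cd300e, Cd209f and Cd209g, have the widest counting intervals, and the spread between libraries is unknown for all.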
